A study of Mus musculus with 9 samples.

Results

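The genes described here build the matrix of the mast cell granule. They are 10 mouse genes of 55274 in the expression tables, namely serglycin (Srgn), 8 enzymes of heparan sulfate and heparin synthesis (Ext1, Ext2, Extl3, Ndst1, Ndst2, Glce, Hs2st1 and Hs6st1) and a chondroitin sulfotransferase (Chst11). They were chosen by name for these roles and not by a threshold on a measured value. RNA was sequenced from 9 cultures of bone marrow cells of C57BL/6J mice, 3 expressing NRASG12D, 3 expressing NUP98-NSD1 and 3 expressing both. NRASG12D is a RAS protein held active by an amino acid change, and NUP98-NSD1 is the fusion of a nuclear pore protein with a histone methyltransferase. The donor mice were females of 6 to 8 weeks that had received 5-fluorouracil at 150 mg/kg 4 days earlier. All cultures were stimulated for 48 h with interleukin-6, interleukin-3 and stem cell factor, infected with retroviruses (MSCV-IRES-BFP for NRASG12D, MSCV-IRES-GFP for NUP98-NSD1), sorted on the fluorochromes and expanded. No untransduced or empty vector culture was analysed here, so each value is read against another oncogene and not against normal cells. NRASG12D cells grown this way are described in the study as mostly IgER+ mast cells. The labels do not say whether replicates came from separate mice or infections, so p-values measure the spread between these libraries, which may be technical.

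Heparin is the highly sulfated form of heparan sulfate that connective tissue type mast cells store in their granules. Its chains hang on serglycin, a small core protein with a run of serine and glycine residues, and their negative charge packs histamine, chymases, tryptases and carboxypeptidase into the granule. Synthesis starts with a linkage sugar chain on the core protein. EXTL3 adds the first N-acetylglucosamine that commits the chain to heparan sulfate, and the EXT1 and EXT2 complex then elongates it. The N-deacetylase and N-sulfotransferases (NDST) replace acetyl by sulfate groups, of which NDST2 is the form that mast cells need for heparin and NDST1 the form at work in most tissues. The epimerase GLCE turns glucuronic into iduronic acid, HS2ST1 sulfates the uronic acid at position 2-O, and HS6ST1 sulfates the glucosamine at position 6-O. CHST11 sulfates chondroitin, the other chain that serglycin can carry, at position 4-O.

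Srgn, Ndst2, Hs6st1 and Glce are the genes that differed in both comparisons with NRASG12D, and their promoters are shown for that reason as the 250 bases before the start of transcription. The sequences are from RefSeq (GRCm38.p6), written 5′ to 3′ in the direction of transcription, with capitals marking each E-box (CANNTG, the general motif of basic helix-loop-helix factors).
Srgn promoter, chr10:62527446-62527695, minus strand: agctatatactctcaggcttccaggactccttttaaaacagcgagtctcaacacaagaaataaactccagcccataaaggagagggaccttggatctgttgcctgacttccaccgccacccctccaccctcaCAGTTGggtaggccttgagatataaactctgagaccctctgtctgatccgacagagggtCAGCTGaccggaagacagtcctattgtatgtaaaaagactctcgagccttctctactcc
Ndst2 promoter, chr14:20734563-20734812, minus strand: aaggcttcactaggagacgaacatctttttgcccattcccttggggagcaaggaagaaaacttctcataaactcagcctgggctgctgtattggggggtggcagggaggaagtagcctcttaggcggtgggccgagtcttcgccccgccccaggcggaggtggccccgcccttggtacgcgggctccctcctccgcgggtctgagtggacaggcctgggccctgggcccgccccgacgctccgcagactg
Hs6st1 promoter, chr1:36068150-36068399, plus strand: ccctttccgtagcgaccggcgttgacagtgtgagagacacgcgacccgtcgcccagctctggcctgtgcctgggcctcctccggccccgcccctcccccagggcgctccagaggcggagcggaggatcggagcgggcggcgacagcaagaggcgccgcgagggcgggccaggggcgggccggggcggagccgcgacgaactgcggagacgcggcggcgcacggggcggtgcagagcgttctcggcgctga
Glce promoter, chr9:62122610-62122859, minus strand: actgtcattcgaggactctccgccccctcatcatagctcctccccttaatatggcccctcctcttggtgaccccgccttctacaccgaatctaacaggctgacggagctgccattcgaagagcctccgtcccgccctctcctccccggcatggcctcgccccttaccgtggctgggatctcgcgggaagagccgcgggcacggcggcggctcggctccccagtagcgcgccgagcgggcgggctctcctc
RefSeq promoters were found for 7 of the 10 genes in 8 windows, since Srgn has a second start, and none were at hand for Ext1, Extl3 and Ndst1. The first Srgn window held an E-box at both places marked in capitals, and the windows of Ndst2, Hs6st1 and Glce held none. E-boxes were present in 66.2% of 32851 mouse promoter windows of this length. The GATA motif (the letters GATA preceded by A or T and followed by A or G, searched like the E-box on both strands) occurred in 26.5% of all windows and in none of the 8 windows of these genes. GC content was 49.6% in the Srgn window, 64.8% in Ndst2, 67.2% in Glce and 76.4% in Hs6st1. CACGTG or CATGTG, the E-box forms bound by MITF-type factors and a subset of the E-boxes counted above, occurred in 17.6% of all windows and in 1 window of these genes, that of Ext2. A match is a description of letters, and its absence says nothing about a factor.

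The deposited values are FPKM, fragments per kilobase of transcript relative to the mapped fragments of the library, which are scaled to gene length and so allow levels of different genes to be compared. From the steps between low values, the depth was estimated at 23500000 to 37000000 fragments per library, with 85.3% to 87.5% of low values on a whole step. Srgn then rested on 31715 to 161441 fragments per library, Ndst2 on 201 to 14711, Hs6st1 on 72.9 to 1169 and Ext1, the lowest of the 10, on 37.0 to 139. A count of 3 fragments corresponds to at most 0.0813 FPKM for each of these genes, and this limit covers counting error only. Nras had 348 to 479 FPKM in NRASG12D, 47.7 to 51.2 with NUP98-NSD1 and 245 to 701 with both, in the order the labels give. For each pair of groups, limma was fitted to the 13493 genes that reached 1 FPKM in 3 or more libraries, as log2(FPKM + 1), and a gene was called at a Benjamini-Hochberg adjusted p under 0.05. Fold changes are on this scale, which understates the change of weakly expressed genes. Over the 13493 genes, the median log2 fold change was 0.27 for NUP98-NSD1 against NRASG12D, 0.23 for the combination against NRASG12D and -0.06 for the combination against NUP98-NSD1. Scaling the libraries by the median ratio moved the first of these medians by -0.26 and the second by -0.17, and quantile normalization moved them by -0.34 and -0.28.

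Mast cell markers were present in each group but at very different levels. The summed FPKM of 10 mast cell markers (Kit, Fcer1a, Ms4a2, Cma1, Mcpt4, Tpsb2, Tpsab1, Hdc, Gata2 and Mitf) ranged from 30047 to 32689 for NRASG12D and from 13687 to 17495 for NUP98-NSD1, and was 621, 2526 and 465 in the 3 NUP98-NSD1+NRASG12D libraries. Cpa3, the mast cell carboxypeptidase, is listed at 0 in the 3 NRASG12D libraries and at 12564 to 14378 FPKM in NUP98-NSD1, and it was left out of the sum. Since the other markers were high in NRASG12D, this 0 may be a failed estimate and is not read as absence. Markers of neutrophils and their progenitors (9 genes) summed to 26.6 to 34.4 FPKM for NRASG12D, 1725 to 6122 for NUP98-NSD1 and 8860 to 19446 for the combination. Those of monocytes and macrophages (6 genes, Csf1r, Adgre1, Cd68, Ly6c2, Cx3cr1 and C1qa) summed to 61.7 to 66.6, 415 to 817 and 1596 to 4335 FPKM. Of these, Cx3cr1 ran the other way, with means of 17.9, 12.1 and 3.18 FPKM. It was called lower in the combination against NRASG12D and against NUP98-NSD1 (log2 fold changes -2.15 and -1.65). Basophil markers (3 genes, Mcpt8, Prss34 and Cd200r3) summed to 406 to 447, 858 to 1603 and 29.2 to 487 FPKM in the 3 groups. This sum joins genes with different directions. Cd200r3 had means of 380, 181 and 22.8 FPKM and was called lower in all 3 comparisons. Mcpt8 had means of 38.7, 752 and 184 FPKM and was called higher in NUP98-NSD1 than in NRASG12D. Prss34 was called higher in both comparisons with NRASG12D, for the combination not in most fits with a library left out. Eosinophil markers (3 genes) summed to at most 0.0785 FPKM for NRASG12D, 7.17 to 27.2 for NUP98-NSD1 and 3.57 to 209 for the combination. Those of megakaryocytes (3 genes, Pf4, Itga2b and Gp9) summed to 479 to 563, 241 to 299 and 75.7 to 1209 FPKM. These genes ran in different directions. Itga2b had means of 510, 230 and 22.1 FPKM and was called lower in all 3 comparisons. Pf4 had means of 1.56, 28.3 and 444 FPKM and was called higher in both comparisons with NRASG12D. Gp9 had at most 2.57 FPKM in each library. Erythroid markers (3 genes) reached at most 2.49, 44.3 and 28.9 FPKM. Summed markers of B cells, T cells and stroma were at or below 0.764 FPKM in each library. Replicate 2 of the combination had the highest mast cell sum of its group and also 144 FPKM of C1qa and 1157 of Pf4, against at most 29.1 and 111 in the other 2. The 3 groups thus differed in their cell type markers. In bulk RNA, fewer cells of a type and less of an RNA per cell cannot be told apart, and this holds for each difference below.

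Serglycin had the highest level of the 10 genes in each group. Ndst2 and Ext2 followed at a distance in NRASG12D and NUP98-NSD1, and Ext2 in the combination. In NRASG12D cells, the mean FPKM was 2992 for Srgn, 120 for Ndst2, 52.9 for Ext2, 9.11 for Hs6st1, 7.55 for Chst11, 4.40 for Extl3, 2.34 for Glce, 1.90 for Ndst1, 1.05 for Hs2st1 and 0.341 for Ext1. The ranges of Hs6st1 and Chst11 overlapped, and the other neighbours in this order did not. In NUP98-NSD1 cells the order was the same down to Ext2, and Hs6st1 (4.51) moved below Chst11 (6.22) and Extl3 (5.10). The ranges of Extl3 and Hs6st1 and of Hs6st1 and Glce (3.94) overlapped there. In the combination Ext2 (36.4) ranked above Ndst2 (5.88), whose range overlapped with those of Glce (5.94) and Chst11 (4.54). Hs6st1 (0.958) had moved down to the level of Ndst1 (1.80) and Hs2st1 (0.884), where the ranges of neighbours overlapped. Ext1 stayed below 1 FPKM in all 9 libraries and was the gene of the 10 that did not enter the test. The plot of FPKM by group shows the 9 libraries for each gene.

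**Figure D1:**
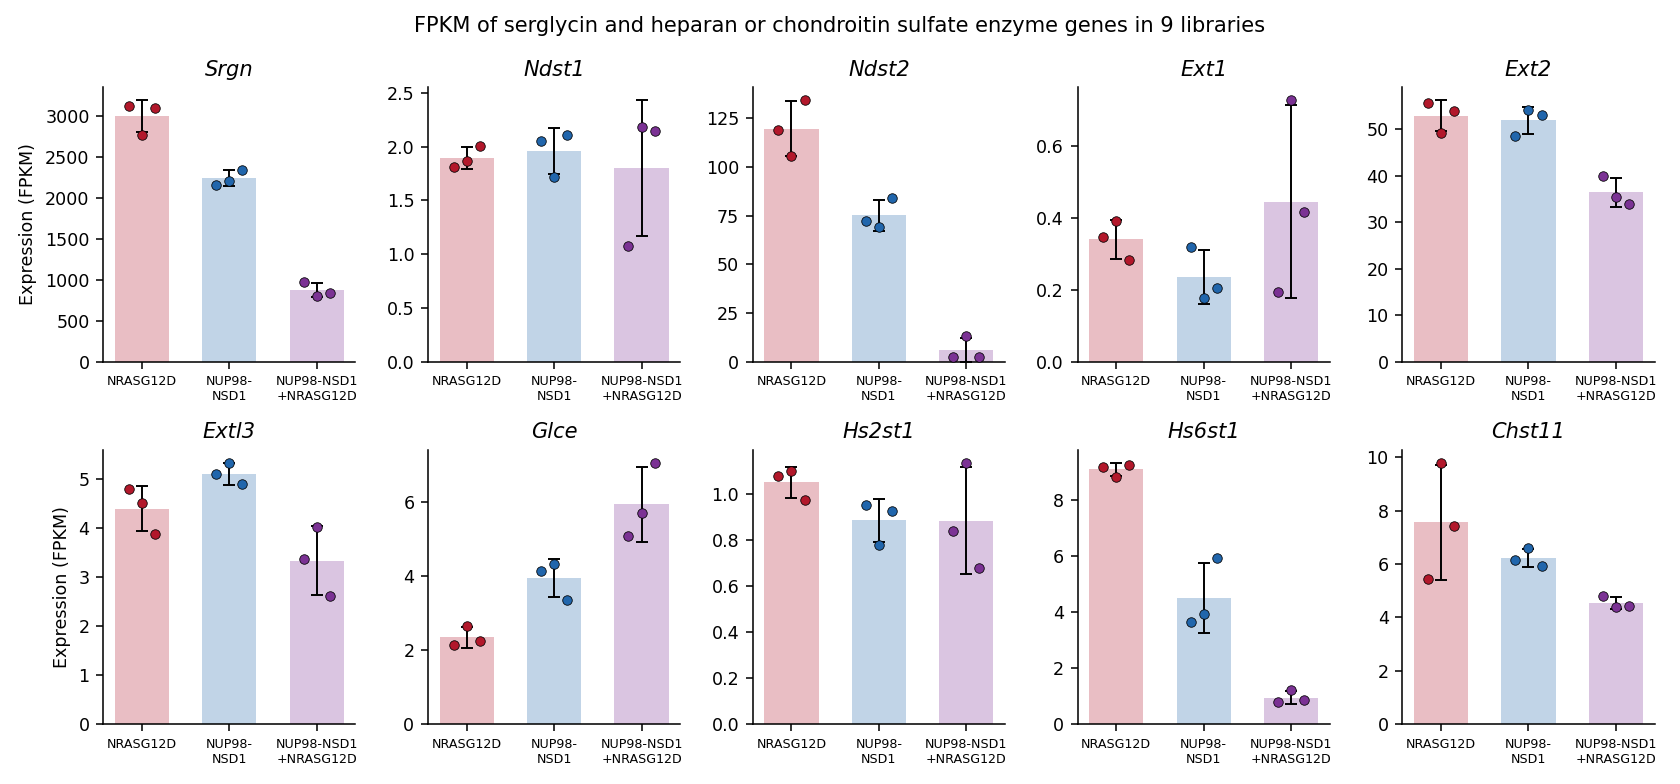
FPKM (linear axes from 0) of the 10 genes in the 3 groups; points are libraries, bars are group means and error bars the SD of 3 libraries. Srgn, Ndst2 and Hs6st1 step down from NRASG12D to NUP98-NSD1 to NUP98-NSD1+NRASG12D without overlap, and Glce steps up. Ndst1, Hs2st1, Ext1 and Extl3 overlap between NRASG12D and the combination.

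Srgn (ENSMUSG00000020077.14, chr10:62493833-62527451, minus strand) was lower in both groups with the fusion. It had 3120, 2767 and 3090 FPKM in the 3 NRASG12D libraries, 2161, 2209 and 2344 in NUP98-NSD1, and 972, 807 and 842 in NUP98-NSD1+NRASG12D. The 3 groups did not overlap. NUP98-NSD1 cells held 74.8% of the NRASG12D mean, a log2 fold change of -0.42 (SE 0.10, limma adjusted p = 0.0134). This call was lost without NRASG12D replicate 1 or without NUP98-NSD1 replicate 1 or 2, with an adjusted p of up to 0.0623, and in the single fit of all 9 libraries (adjusted p = 0.0903). With quantile normalization the log2 fold change was -0.03 (limma adjusted p = 0.827). The combination held 29.2% of the NRASG12D mean (log2 fold change -1.78, SE 0.21, limma adjusted p = 0.000974), and this call held in each of the 6 fits with a library left out. Against NUP98-NSD1 the combination held 39.1% (log2 fold change -1.36, SE 0.23, limma adjusted p = 0.0173). Here the call was lost without NUP98-NSD1 replicate 1, 2 or 3 or without replicate 3 of the combination, with an adjusted p of up to 0.105 and a log2 fold change between -1.44 and -1.30, and also with a replicate block (adjusted p = 0.0742). At 874 ± 87.0 FPKM (SD, n = 3) Srgn was still abundant in the combination.

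Of the polymerases of the heparan chain, Ext2 was called lower in the combination than in NRASG12D. In the main fit Extl3 was called in no comparison. Ext2 (ENSMUSG00000027198.16, chr2:93661028-93822568, minus strand), the partner of Ext1 in the elongating complex, had 55.6, 49.3 and 53.9 FPKM in NRASG12D, 48.6, 54.1 and 53.1 in NUP98-NSD1, and 39.9, 35.4 and 34.0 in the combination. The first 2 groups overlapped, and the combination lay below both. Between NUP98-NSD1 and NRASG12D the log2 fold change was -0.03 (95% interval -0.23 to 0.17, limma adjusted p = 0.804), which became -0.33 (adjusted p = 0.0289) under median-ratio scaling and -0.34 (adjusted p = 0.0301) under quantile normalization. The combination fell to 68.8% of the NRASG12D mean (log2 fold change -0.53, SE 0.14, limma adjusted p = 0.0235), a call lost in 4 of the 6 fits with a library left out (NRASG12D replicate 1, 2 or 3, or replicate 3 of the combination) and with a replicate block (adjusted p = 0.0686). Against NUP98-NSD1 it differed by -0.50 on the log2 scale (limma adjusted p = 0.0758), which was called in the single fit of all 9 libraries (adjusted p = 0.0188). Ext1 (ENSMUSG00000061731.9, chr15:53064038-53346159, minus strand) had 0.347, 0.391 and 0.284 FPKM in NRASG12D, 0.320, 0.178 and 0.206 in NUP98-NSD1, and 0.193, 0.727 and 0.416 in the combination. The combination spread the widest and overlapped with both other groups, and an exact permutation test gave p = 0.2 for NUP98-NSD1 and p = 0.7 for the combination against NRASG12D. Extl3 (ENSMUSG00000021978.9, chr14:65052060-65149855, minus strand) had 4.80, 4.50 and 3.89 FPKM, then 5.10, 5.33 and 4.89, then 3.38, 4.01 and 2.61. Its highest values were in NUP98-NSD1. Between the groups with the fusion, 1 of 7 alternative settings, not a scaling, called its difference (limma adjusted p = 0.0228). None of its differences was called in the main fit. The log2 fold change was 0.18 for NUP98-NSD1 (95% interval -0.08 to 0.44, limma adjusted p = 0.205; below 0 under both other scalings) and -0.33 for the combination (limma adjusted p = 0.202; -0.56 and 0.0333 with quantile normalization) against NRASG12D, and -0.51 between the groups with the fusion (limma adjusted p = 0.139).

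Ndst2 (ENSMUSG00000039308.6, chr14:20723730-20734562, minus strand) showed the largest difference of the 9 genes tested in both comparisons with the combination. It had 119, 106 and 134 FPKM in NRASG12D, 72.2, 69.0 and 84.0 in NUP98-NSD1, and 2.37, 13.0 and 2.24 in the combination. The groups did not overlap, and replicate 2 of the combination stood above the other 2. NUP98-NSD1 cells kept 62.8% of the NRASG12D mean (log2 fold change -0.66, SE 0.12, limma adjusted p = 0.00419), a call that was lost when all 9 libraries shared 1 fit (limma adjusted p = 0.317). The combination held 4.92% of it (log2 fold change -4.49, SE 0.55, limma adjusted p = 0.00111), a call that held without each of the 6 libraries with a log2 fold change between -5.18 and -4.13. Against NUP98-NSD1 the combination held 7.84% (log2 fold change -3.83, SE 0.55, limma adjusted p = 0.0113). Without NUP98-NSD1 replicate 3 this last comparison gave an adjusted p of 0.0569.

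Ndst1 (ENSMUSG00000054008.9, chromosome 18), the general sister enzyme, stayed near 2 FPKM. It had 1.81, 1.87 and 2.01 FPKM in NRASG12D, 2.05, 1.72 and 2.11 in NUP98-NSD1, and 1.07, 2.18 and 2.15 in the combination. The groups overlapped in each comparison. The log2 fold change was 0.03 (95% interval -0.25 to 0.31, limma adjusted p = 0.848), -0.08 (-0.58 to 0.43; adjusted p = 0.797) and -0.11 (-0.62 to 0.41; adjusted p = 0.851) in the 3 comparisons. Its sign changed with the scaling in the first and the last of these, and in the second with array weights or without replicate 1 of the combination. Rps14, a ribosomal protein gene with 813 to 1676 FPKM, lies on the opposite strand within the bounds of Ndst1 but shares no exon base with it.

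The make-up of the NDST pair in the combination lay outside the range of the other groups. Ndst2 made up 98.5%, 98.3% and 98.5% of the summed Ndst1 and Ndst2 FPKM in NRASG12D, 97.2%, 97.6% and 97.6% in NUP98-NSD1, and 68.8%, 85.7% and 51.0% in NUP98-NSD1+NRASG12D. As a ratio, Ndst2 exceeded Ndst1 by 56.6 to 66.8 times in NRASG12D, by 35.2 to 40.1 times in NUP98-NSD1 and by 1.04 to 5.98 times in the combination. A share within a library does not change when the whole library is multiplied by 1 factor, but it does under quantile normalization, which was not applied to it. The mean share of the combination differed by -29.9 percentage points from NRASG12D and by -28.9 from NUP98-NSD1, and that of NUP98-NSD1 by -0.977 points from NRASG12D. The groups did not overlap in these 3 comparisons, and the two-sided exact permutation test gave p = 0.1 for each, the smallest value that 3 libraries against 3 allow. Ndst3, a further NDST with 8.54, 13.0 and 8.07 FPKM in NRASG12D, fell to 3.11, 2.90 and 5.07 in NUP98-NSD1 (log2 fold change -1.21, limma adjusted p = 0.00528) and to 0.0923, 0.456 and 0.0909 in the combination (log2 fold change -3.15, limma adjusted p = 0.000176). Ndst4 was at or below 0.0833 FPKM in each library. With all 4 NDST genes as the total, the Ndst2 share of the combination differed from NRASG12D by -24.3 points, and in NUP98-NSD1 it was 2.17 points higher, with overlapping groups and an exact permutation p of 0.2.

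**Figure D2:**
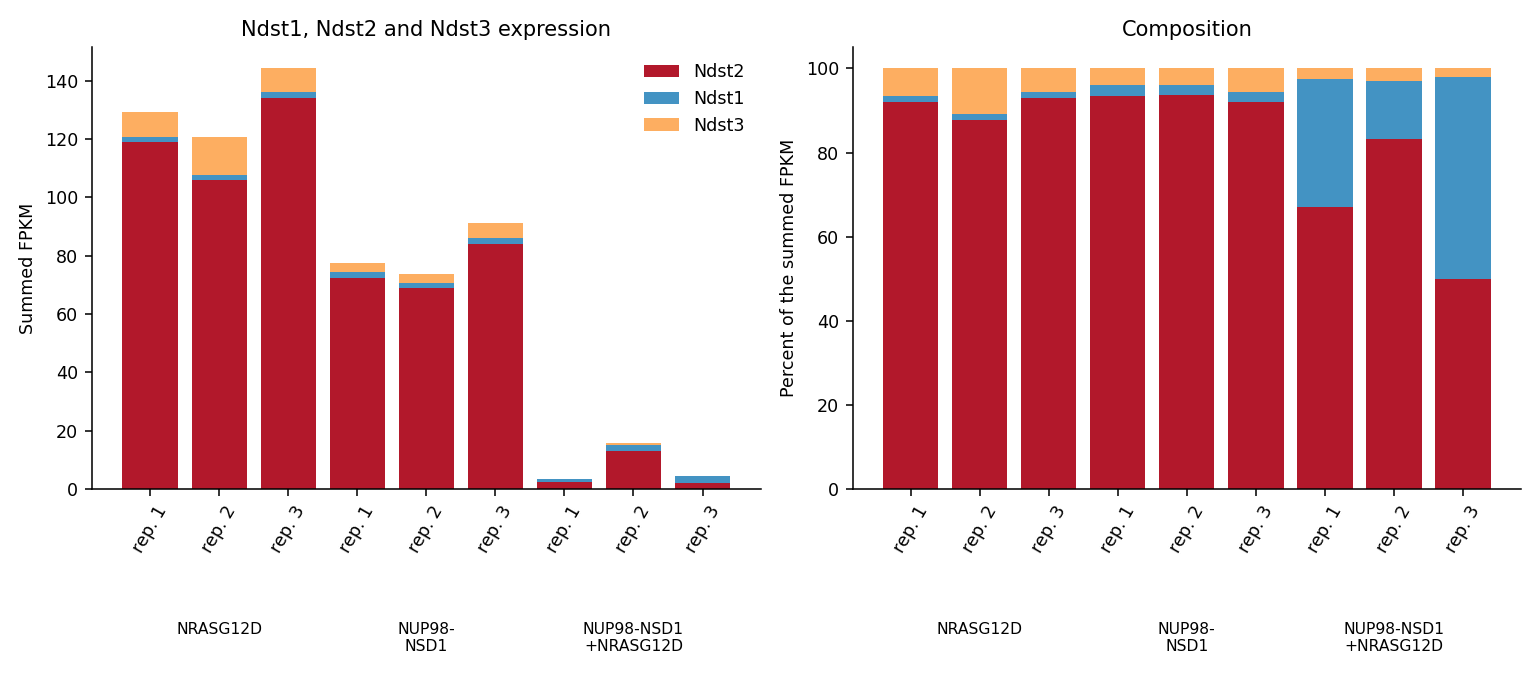
Left, summed FPKM of Ndst2, Ndst1 and Ndst3 in each library as stacked bars; right, the same as percent of the sum. The total falls in NUP98-NSD1+NRASG12D, where Ndst1 takes a visible part of the bar; Ndst4 is not drawn.

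The epimerase and the 2-O-sulfotransferase were not called lower without further scaling. Glce (ENSMUSG00000032252.14, chr9:62057248-62122655, minus strand) was the gene of the 9 tested that was called higher, in both groups with the fusion. It had 2.13, 2.66 and 2.24 FPKM in NRASG12D, 4.14, 4.31 and 3.36 in NUP98-NSD1, and 5.06, 5.70 and 7.05 in the combination. The 3 groups did not overlap. It reached 168% of the NRASG12D mean in NUP98-NSD1 (log2 fold change 0.56, SE 0.13, limma adjusted p = 0.0109; 0.22 and adjusted p = 0.142 with quantile normalization) and 253% in the combination (log2 fold change 1.05, SE 0.18, limma adjusted p = 0.00441). The combination was at 151% of NUP98-NSD1, a difference not called in the main fit (log2 fold change 0.49, SE 0.18, limma adjusted p = 0.161). It was called in 1 of 7 alternative settings, not a scaling (limma adjusted p = 0.0447). Hs2st1 (ENSMUSG00000040151.9, chr3:144429706-144570181, minus strand) had 1.08, 1.10 and 0.974 FPKM in NRASG12D, 0.952, 0.779 and 0.927 in NUP98-NSD1, and 0.840, 1.14 and 0.678 in the combination. Its libraries lay close to the filter of 1 FPKM in each group. The log2 fold changes were -0.12 (95% interval -0.41 to 0.16, limma adjusted p = 0.422), -0.13 (-0.52 to 0.26; adjusted p = 0.561) and -0.01 (-0.39 to 0.38; adjusted p = 0.989), the last of which changed sign with the scaling. With quantile normalization the first was -0.71 and was called (limma adjusted p = 0.00484).

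Hs6st1 (ENSMUSG00000045216.7, chr1:36068400-36106446, plus strand) fell in each comparison. Its levels were 9.21, 8.85 and 9.27 FPKM in NRASG12D, 3.67, 3.93 and 5.94 in NUP98-NSD1, and 0.792, 1.22 and 0.856 in the combination. The groups did not overlap, and the 3 NRASG12D libraries had an SD of 0.228 FPKM. NUP98-NSD1 cells held 49.5% of the NRASG12D mean (log2 fold change -0.90, SE 0.16, limma adjusted p = 0.00445), and the combination held 10.5% (log2 fold change -2.38, SE 0.16, limma adjusted p = 0.000142). The combination held 21.2% of the NUP98-NSD1 mean (log2 fold change -1.48, SE 0.21, limma adjusted p = 0.0112). All 3 calls held in each fit with a library left out. An antisense transcript, Gm37335, overlaps 447 exon bases of Hs6st1 (8.07%) and had 2.63 to 3.81, 0.836 to 2.54 and 0.130 to 0.766 FPKM in the 3 groups. The sources used here do not say whether fragments were counted by strand, so part of the Hs6st1 value could not be separated from Gm37335. Of the stretches of 50 bases in Hs6st1 transcripts, 6.37% also occur in other genes, against 0.410% for Glce and none for the other 8 genes.

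Chst11 (ENSMUSG00000034612.7, chr10:82985498-83195900, plus strand), on the chondroitin side, had 5.45, 9.78 and 7.43 FPKM in NRASG12D, 6.16, 6.59 and 5.91 in NUP98-NSD1, and 4.80, 4.41 and 4.42 in the combination. The combination lay below the other groups, and the NRASG12D libraries spread the widest. None of the differences was called in the main fit, with log2 fold changes of -0.21 (limma adjusted p = 0.362), -0.60 (95% interval -1.11 to -0.08, limma adjusted p = 0.0668) and -0.38 (limma adjusted p = 0.175). Of 7 alternative settings, 3 called the second, 1 of them not a scaling. The third was called in 1, not a scaling (limma adjusted p = 0.0485). With median-ratio scaling the second of these differences was -0.77 (limma adjusted p = 0.0269), and with quantile normalization the first 2 were -0.56 and -0.85 (limma adjusted p = 0.0346 and 0.0157).

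Counted over the 9 tested genes, NUP98-NSD1 against NRASG12D gave 4 calls, 1 higher (Glce) and 3 lower (Srgn, Ndst2 and Hs6st1). Among all 13493 genes 52.1% were called in this comparison, 42.2% higher and 9.98% lower, so the total of 4 calls was near the background. The split of all calls depended on scaling, since 80.9% of them were higher without scaling, 52.3% with median-ratio scaling and 43.2% with quantile normalization. For the combination against NRASG12D, 5 of 9 were called, Glce higher and Srgn, Ndst2, Ext2 and Hs6st1 lower, against 38.3% of all genes (24.2% higher and 14.1% lower; 63.1% of calls higher, 53.1% and 41.3% under the other scalings). Between the combination and NUP98-NSD1, Srgn, Ndst2 and Hs6st1 were called, all lower, against 8.61% of all genes (2.3% higher and 6.31% lower). In the first comparison 6 of the 9 genes had groups that did not overlap, against 64.2% of all genes. Of these 6, 4 were lower and 2 higher, against 13.5% and 50.7% of all genes. The second comparison had 5 such genes lower and 1 higher, against 58.6% of all genes in total, 19.9% lower and 38.7% higher. In the last comparison 6 were lower and 1 higher, against 31.4% in total, 19.8% lower and 11.6% higher. The median log2 fold change of the 9 genes was -0.12, -0.53 and -0.50, beside 0.27, 0.23 and -0.06 over all genes. Measured from the median of all genes, Srgn differed by -0.69, -2.01 and -1.30, Ndst2 by -0.93, -4.72 and -3.77, Hs6st1 by -1.17, -2.60 and -1.42, and Glce by 0.29, 0.82 and 0.55 on the log2 scale. The first 2 comparisons share the NRASG12D libraries, and the last 2 share those of the combination. Without replicate 2 of the combination the counts were 5 against NRASG12D and 3 against NUP98-NSD1, with the same genes named as called.

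**Figure D3:**
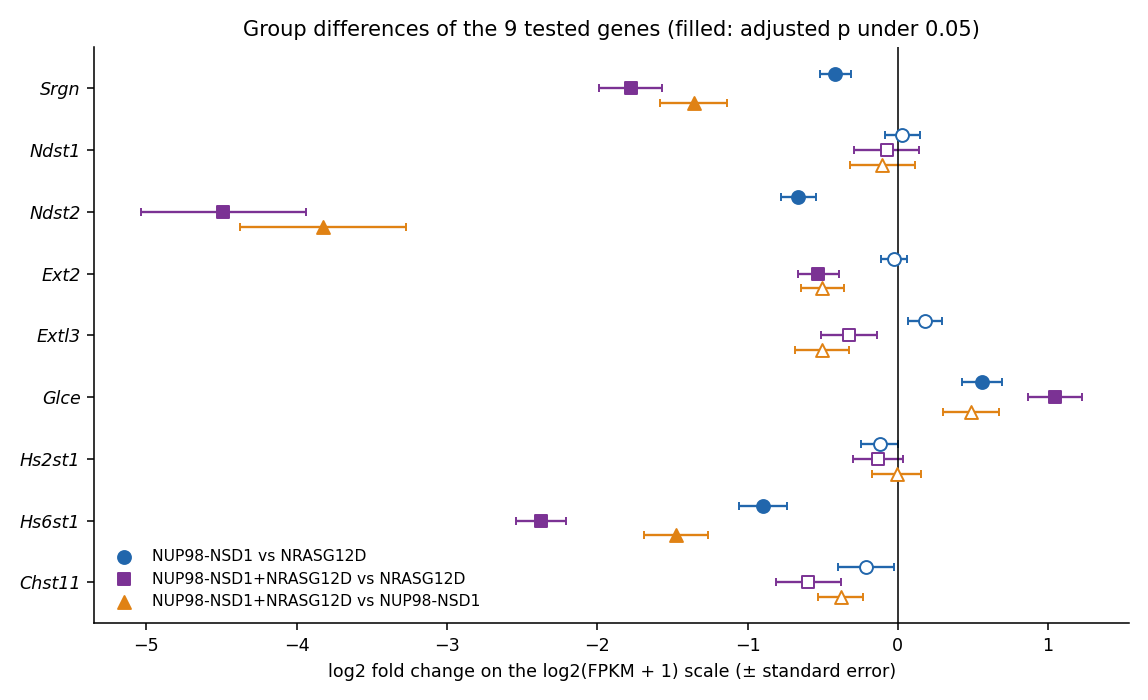
Log2 fold change on the log2(FPKM + 1) scale with its standard error for the 9 tested genes in the 3 comparisons; filled symbols have an adjusted p under 0.05. Ndst2 lies farthest from 0 in both comparisons with the combination (-4.49 and -3.83), and Ndst1 and Hs2st1 lie next to 0.

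Levels of the mast cell markers moved with several of these genes, and their part in the differences was not tested. Of the 10 markers tested, NUP98-NSD1 against NRASG12D called 5 lower (Kit, Ms4a2, Cma1, Tpsb2 and Mitf) and 2 higher (Mcpt4 and Hdc). The lower calls of Kit, Ms4a2, Cma1 and Tpsb2 were lost in the single fit of all 9 libraries. That of Ms4a2 was also lost with a replicate block. The combination called 9 lower and Hdc higher against NRASG12D, a rise that was lost under both other scalings, and 7 lower against NUP98-NSD1. Expressed as percent of the NRASG12D mean, the median of the 10 markers was 51.8%, 53.9% and 78.5% in the NUP98-NSD1 libraries and 3.98%, 12.7% and 1.72% in those of the combination. Ndst2 stood at 60.4%, 57.7% and 70.2% and then at 1.98%, 10.9% and 1.87%, so in both groups its highest library was that with the highest marker median. Hs6st1 stood at 40.3%, 43.1% and 65.2% and then at 8.69%, 13.4% and 9.40%, again with the highest library the same. Srgn stood at 72.2%, 73.8% and 78.3% and then at 32.5%, 26.98% and 28.2%, and in the combination its lowest library was the one with the highest marker median. In each library of the combination the Srgn percentage lay above the marker median. Glce stood at 177%, 184% and 143% and then at 216%, 244% and 301%.

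**Figure D4:**
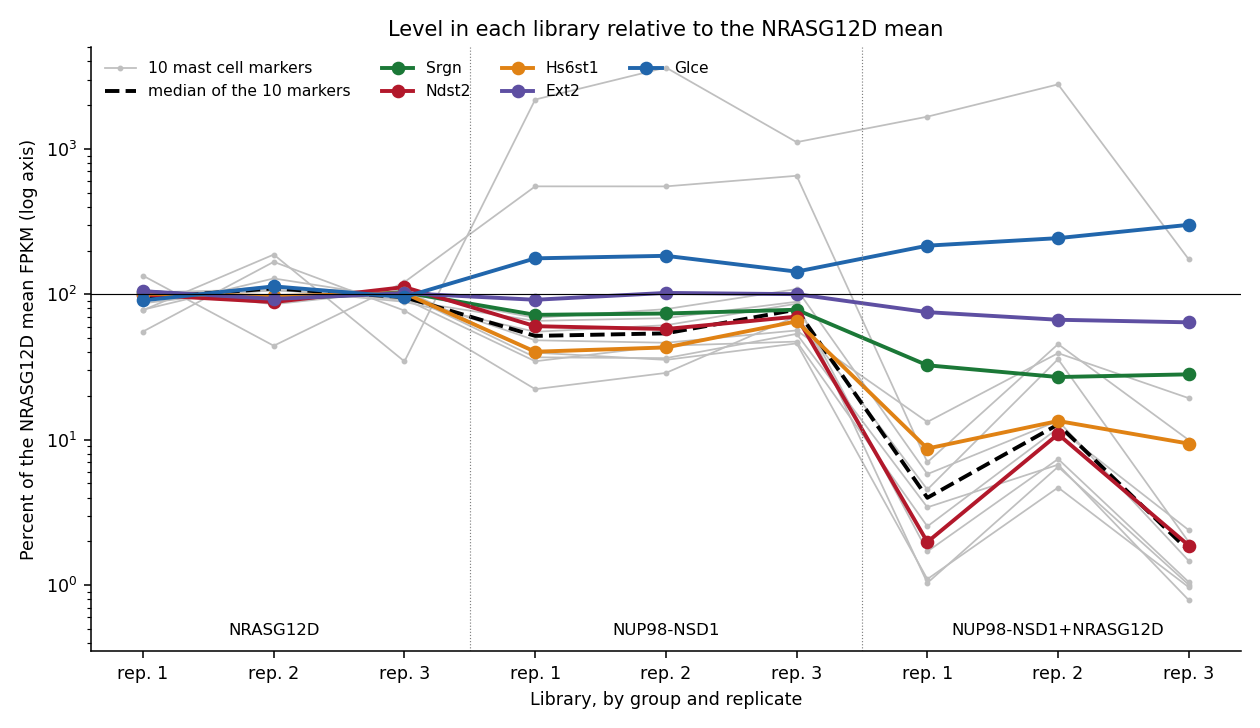
Level of Srgn, Ndst2, Hs6st1, Ext2 and Glce in each library as percent of the NRASG12D mean FPKM (log axis), with 10 mast cell markers in grey and their median dashed; lines join the values of 1 gene and imply no order. In NUP98-NSD1+NRASG12D, Ndst2 lies along the marker median (1.98%, 10.9% and 1.87%), Srgn above it (32.5%, 26.98% and 28.2%) and Glce above 100%.

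Other genes of glycosaminoglycan metabolism gave the wider frame. Of 72 such genes, 50 passed the filter on low values. Hpse, Pxylp1, Dse, Chst13, Arsb, Chpf and Hs3st3b1 were below 1 FPKM in each NRASG12D library, as were core proteins named below. They passed only through the groups with the fusion, so the filter favours rises in the counts against NRASG12D. Against NRASG12D, 23 of the 50 were higher and 11 lower in NUP98-NSD1, and 20 were higher and 12 lower in the combination. With median-ratio scaling the first of these counts was 15 higher and 17 lower and the second 17 and 13, and with quantile normalization they were 10 and 20, then 17 and 15. Between the combination and NUP98-NSD1, 4 were higher (Hpse, Ugp2, Sdc3 and Cd44) and 8 lower (Extl1, Ndst3, Hs6st2, Hs3st1, Chsy1, Chst15, Papss2 and Slc35d1). Without further scaling, 42.2% of all genes were higher and 9.98% lower in NUP98-NSD1, and 24.2% and 14.1% in the combination, against NRASG12D. Between the groups with the fusion the shares were 2.3% and 6.31%. Of the 13493 genes, median-ratio scaling called 3231 higher and 2950 lower in NUP98-NSD1, and 2773 and 2449 in the combination. With quantile normalization these numbers were 2619 and 3447, then 2155 and 3064.

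Among the enzymes that modify the heparan chain, 6 genes outside the 10 were tested. Against NRASG12D, 2 were higher and 2 lower in NUP98-NSD1 (42.2% and 9.98% of all genes). In the combination 2 were higher and 3 lower (24.2% and 14.1%). Hs6st2, the sister of Hs6st1 that also sulfates position 6-O, had 107, 97.6 and 98.7 FPKM in NRASG12D, 57.1, 60.1 and 87.9 in NUP98-NSD1, and 1.82, 7.84 and 1.15 in the combination. It was the more abundant of the 2 enzymes in NRASG12D, and it fell by 0.58 on the log2 scale in NUP98-NSD1 (limma adjusted p = 0.0210) and by 4.76 in the combination (limma adjusted p = 0.000573). The call in NUP98-NSD1 was lost in the single fit of all 9 libraries (adjusted p = 0.340) and without NRASG12D replicate 1 or 3 or NUP98-NSD1 replicate 1 or 2. Hs3st1, which adds the rare 3-O-sulfate of the antithrombin binding site, had 88.1, 34.0 and 98.2 FPKM in NRASG12D, 36.1, 42.6 and 55.0 in NUP98-NSD1, and 0.268, 3.08 and 0.163 in the combination. NRASG12D and NUP98-NSD1 overlapped for Hs3st1 (log2 fold change -0.59, limma adjusted p = 0.233), and the combination lay below both (-5.22 against NRASG12D, limma adjusted p = 0.000807). Hpse, the heparanase that cuts heparan chains, ran the other way with 0.0268, 0.127 and 0.0720 FPKM in NRASG12D, 7.07, 6.47 and 5.59 in NUP98-NSD1, and 27.8, 58.8 and 83.7 in the combination. It was higher in all 3 comparisons (log2 fold changes 2.77, 5.61 and 2.84, limma adjusted p = 4.69e-05, 0.000128 and 0.00986). Hpse was below 1 FPKM in each NRASG12D library and passed the filter only through the groups with the fusion. This favours a rise against NRASG12D.

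The supply of activated sulfate and sugars was represented by 9 genes. Papss2, which makes the sulfate donor PAPS, had 171, 165 and 186 FPKM in NRASG12D, 111, 118 and 147 in NUP98-NSD1, and 10.2, 21.2 and 16.0 in the combination. It fell in each comparison (in NUP98-NSD1 against NRASG12D not in the single fit, adjusted p = 0.146), to 9.07% of the NRASG12D mean in the combination (log2 fold change -3.44, limma adjusted p = 0.000173). Slc35d1, a carrier of nucleotide sugars into the endoplasmic reticulum, fell alongside with 41.5 to 47.7, 29.4 to 35.5 and 4.31 to 7.49 FPKM in the 3 groups (log2 fold change -2.73 in the combination against NRASG12D, limma adjusted p = 0.000173). Of the 9, 3 were higher and 3 lower in NUP98-NSD1 against NRASG12D (42.2% and 9.98% of all genes). In the combination 2 were higher and 3 lower against NRASG12D (24.2% and 14.1%). The 3 rises in NUP98-NSD1 (Slc35b2, Ugp2 and Uxs1) were lost under both other scalings, as was that of Ugdh in the combination, and Ugp2 in NUP98-NSD1 changed from 0.30 to -0.0081 on the log2 scale with quantile normalization. Ugp2, the source of UDP-glucose, rose in the combination to 237% of the NRASG12D mean (limma adjusted p = 0.00291).

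On the chondroitin side, Chst15, which adds the second sulfate of the oversulfated chondroitin E of mast cells, had 16.2, 18.1 and 14.7 FPKM in NRASG12D, 8.33, 7.61 and 10.5 in NUP98-NSD1, and 0.916, 2.53 and 0.861 in the combination. The groups did not overlap, and its log2 fold change was -0.83 in NUP98-NSD1 and -2.89 in the combination against NRASG12D (limma adjusted p = 0.00341 and 0.000419). Chsy1, a chondroitin polymerase, had 40.05 to 61.7, 30.5 to 45.5 and 7.53 to 11.4 FPKM in the 3 groups and fell in the combination against both others (log2 fold change -2.32 against NRASG12D, limma adjusted p = 0.000454). Chst12, which shares the 4-O position with Chst11, rose with 50.7 to 59.4, 68.6 to 85.3 and 92.8 to 137 FPKM (log2 fold change 0.54 and 1.00 against NRASG12D, limma adjusted p = 0.00725 and 0.00620). Dse, the epimerase that turns chondroitin into dermatan sulfate, is listed at 0, 0.115 and 0 FPKM in NRASG12D and had 8.56, 7.74 and 3.03 in NUP98-NSD1 and 13.0, 28.8 and 14.7 in the combination. Of the 6 modifying enzymes tested beside Chst11, 3 were higher and 1 lower against NRASG12D in both groups with the fusion. The shares over all genes were 42.2% and 9.98% for NUP98-NSD1 and 24.2% and 14.1% for the combination. Of the 3 that rose, Chst13 and Dse were below 1 FPKM in each NRASG12D library.

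Of the 8 core proteins tested other than serglycin, 8 were higher in NUP98-NSD1 and 7 in the combination than in NRASG12D, and none was called lower. Over all genes, 42.2% and 24.2% were called higher. Sdc1, Sdc2, Sdc3, Sdc4, Gpc1 and Prg2 were below 1 FPKM in each NRASG12D library and passed the filter only through the groups with the fusion. The filter thus favours rises here, and the lack of calls lower is not read as a result. Of the 8, Sdc2 was the one not called in the combination (log2 fold change 0.58). Between the combination and NUP98-NSD1, 2 of the 8 were called (Cd44 and Sdc3, both higher), 0 with median-ratio scaling and 1 with quantile normalization. Cd44, a cell surface receptor for hyaluronan that can carry these chains, ranged from 9.03 to 10.1 FPKM across NRASG12D, 25.1 to 32.2 across NUP98-NSD1 and 41.8 to 65.1 across the combination libraries (log2 fold changes 1.47 and 2.43 against NRASG12D, limma adjusted p = 0.000303 and 0.000239). Sdc4, a membrane heparan sulfate proteoglycan, had 0.0861 to 0.778, 3.70 to 7.62 and 12.8 to 51.2 FPKM. Even so, Srgn remained above each of them in FPKM in all 9 libraries. Under quantile normalization 4 of the 8 rises in NUP98-NSD1 (Sdc1, Sdc2, Sdc3 and Vcan) were no longer called, with no change of sign. In the linkage region none of 6 tested genes was called lower (9.98% and 14.1% of all genes). Of the 6, 4 were higher in NUP98-NSD1 and 3 in the combination (42.2% and 24.2%). For NUP98-NSD1 this count rested on the scaling, since under both other scalings 1 gene was higher (Pxylp1) and B4galt7 was lower, joined by Fam20b with quantile normalization. In the combination Pxylp1 and Xylt2 were higher under both. Pxylp1, the phosphatase that releases the linkage chain for elongation, had 0.0894 to 0.203, 2.91 to 8.62 and 13.4 to 27.1 FPKM. Lysosomal enzymes that degrade the chains split, with 2 of 9 higher and 4 lower in NUP98-NSD1 (42.2% and 9.98% of all genes). In the combination 2 were higher and 2 lower (24.2% and 14.1%). Under either other scaling these were 1 and 6, then 1 and 2. Arsb, which removes sulfate from chondroitin, had 0.445 to 0.479, 3.14 to 7.01 and 10.7 to 13.2 FPKM, and Ids, which removes it from iduronic acid, had 4.79 to 5.94, 1.67 to 2.64 and 0.379 to 1.81.

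**Figure D5:**
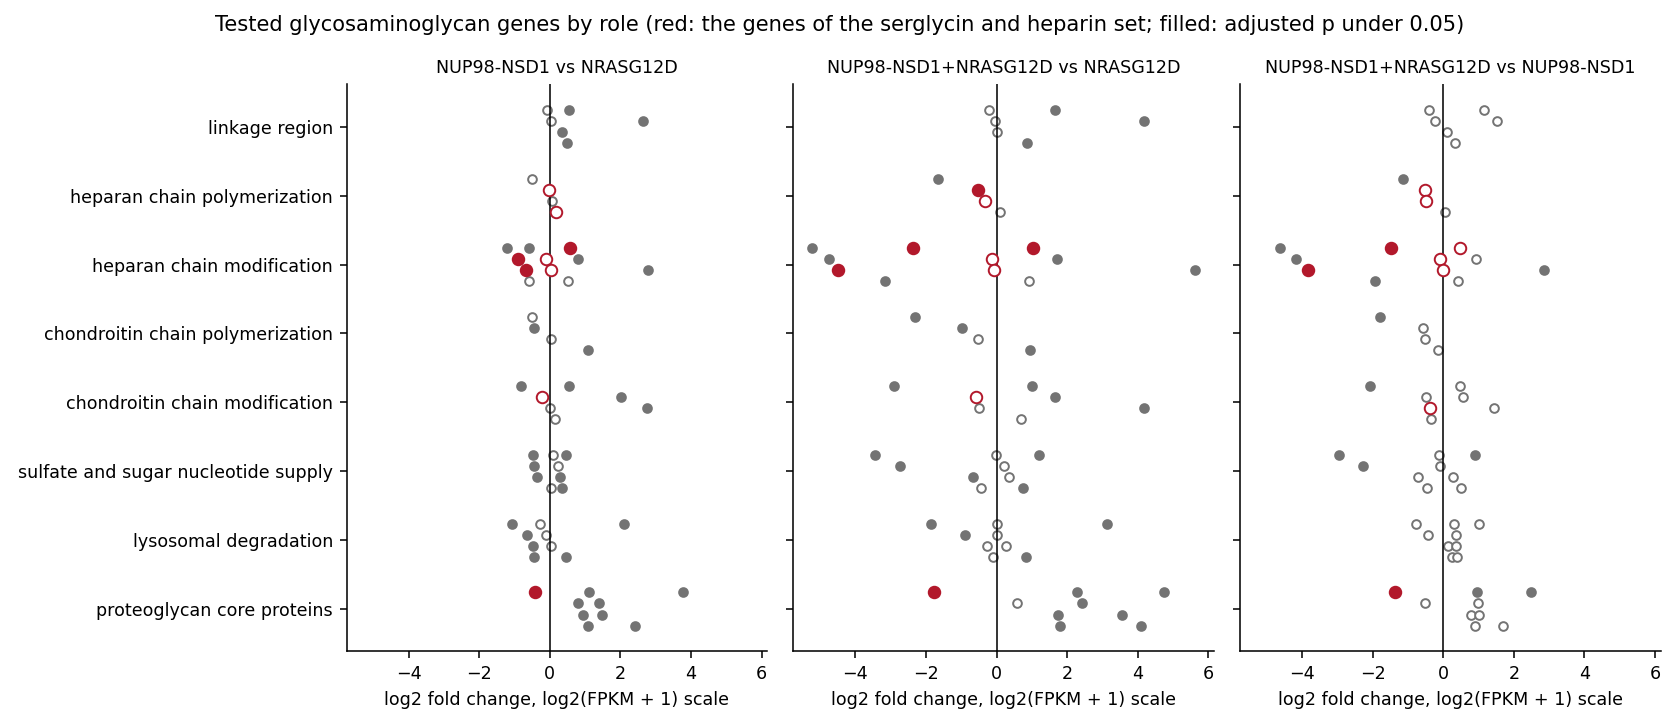
Log2 fold change on the log2(FPKM + 1) scale of the tested glycosaminoglycan genes by role in the 3 comparisons; 1 symbol is 1 gene, red for the genes described individually and filled for an adjusted p under 0.05. Core proteins other than Srgn lie above 0 against NRASG12D, but most passed the filter on low values only through the groups with the fusion. The heparan chain modifying enzymes spread to both sides.

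Genes whose pattern was most like that of Srgn and Ndst2 were ranked by Pearson r of log2(FPKM + 1) over the 9 libraries, as a description, since the 9 points fall into 3 groups and share their libraries. Nearest to Ndst2 were Inpp4b (r = 0.999), Ptprg, Maob, Rprm and Tpsg1, all with r of at least 0.997. Tpsg1, the membrane tryptase of mast cells, had a mean of 1187 FPKM in NRASG12D, 657 in NUP98-NSD1 and 37.7 in the combination. Inpp4b, a phosphoinositide phosphatase, had means of 230.3, 140.4 and 9.60 FPKM. Nearest to Srgn were Hdgf (r = 0.990), Kbtbd3, Tmem123, Phldb3 and Smco4, the last with r = 0.9866. Hdgf, a growth factor, had means of 106, 85.0 and 51.8 FPKM, a smaller range than the neighbours of Ndst2. For the other tested genes, the nearest were Smim3 for Hs6st1 (r = 0.997), St14 for Glce (0.995), BC004004 for Ext2 (0.988), Gm5141 for Extl3 (0.979), Pdcd6ip for Ndst1 (0.973), Atp13a4 for Chst11 (0.966) and Gm38394 for Hs2st1 (0.953). St14, the membrane protease matriptase, had means of 0.501, 4.68 and 25.5 FPKM.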

How the data were processed

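RNA of 9 sorted and expanded mouse bone marrow cultures, 3 per group, was sequenced with paired-end reads of 50 bp. Reads were aligned by the authors to GRCm38 with STAR (2.7.2a in the submitters' processing notes), and genes were quantified with Cufflinks 2.2.1 on a GENCODE annotation. The authors deposited FPKM, with 1 table per library, and the sources used here name no scaling beyond it. Strand-specific counting and the handling of multiply aligned reads are not given in the sources used here. The study's methods name DESeq2 on fragment counts, which were not used here, since a count test cannot be run on FPKM.

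Groups were taken from the sample labels. The 10 genes, the other gene lists and the tests were chosen with earlier results of these data known. Values of repeated identifiers were summed, which left 55274 genes. The 13493 genes that reached 1 FPKM in 3 or more libraries were fitted as log2(FPKM + 1) with limma 3.58.1 in R 4.3.3 (eBayes with a trend), each pair of groups on its own 6 libraries, and p-values were adjusted over all 13493 genes by the Benjamini-Hochberg method with a threshold of 0.05. The fit was tested on simulated data. For shares, the exact permutation test was used (two-sided). Depth (23500000 to 37000000 fragments) was estimated from the spacing of low FPKM in 3386 single-transcript genes longer than 2500 bp, where a value within 0.15 of a whole step counted as whole. Shared sequence was the percent of 50-base stretches found in transcripts of other genes. Coordinates are from GENCODE M21 on GRCm38, counted from 1, and promoters from RefSeq. Named were the 10 genes; of the other glycosaminoglycan genes up to 4 per role by size among those called with groups that did not overlap; marker genes that describe the cells; and the genes most like each member by Pearson r. Of the glycosaminoglycan list, 1 gene was not analysed here. Scripts used pandas 2.3.3, numpy 2.4.6, scipy 1.17.1 and matplotlib 3.10.9 under Python 3.11.15.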

Additional observations from a re-analysis of the deposited data

How the results depend on the processing

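Another pseudocount (0.1), no filter on low values, median-ratio scaling, quantile normalization, a single fit of all 9 libraries, array weights, a replicate block and fits without each library in turn were tried. For NUP98-NSD1 against NRASG12D, the single fit called 2 of the 9 genes (Glce and Hs6st1) and 16 of the other glycosaminoglycan genes. For the combination against NUP98-NSD1, the fit without a filter called 0 of the 10 genes (7 at an unadjusted p under 0.05; limma over 41853 genes) and 2 of the others, array weights called 7 and 26, and the single fit called 19 of the others. Leaving out 1 library gave 1 to 4 calls among the 10 genes and 7 to 20 among the others in this comparison, with 1 and 7 without NUP98-NSD1 replicate 3 and 4 and 20 without replicate 1 of the combination. The cause of these changes was not tested, other than that no filter tests more genes. Hs6st1 and Ndst2 kept their direction in each alternative.

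Among the 10 genes, signs changed for differences that were not called. Of the calls among the other glycosaminoglycan genes, 1 changed sign, Ugp2 in NUP98-NSD1 against NRASG12D (-0.0081 with quantile normalization). For NUP98-NSD1 against NRASG12D, Ndst1 was at -0.17 with median-ratio scaling, -0.34 with quantile normalization and -0.019 with array weights, and at -0.0069 to 0.089 without 1 library. Extl3 was at -0.073 and -0.14 under the 2 scalings, and Ext2 at -0.077 to 0.019 without 1 library. The Ndst2 share over all 4 NDST genes differed by 2.17 points. For the combination, Ndst1 was at 0.072 with array weights and -0.18 to 0.13 without 1 library against NRASG12D, and against NUP98-NSD1 at 0.034 with quantile normalization, 0.084 with array weights and -0.21 to 0.098 without 1 library. Hs2st1 was there at 0.044 and 0.39 under the 2 scalings and at -0.10 to 0.073 without 1 library.

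Replicate numbers gave no sign of pairing. The deviations of same-numbered libraries had mean correlations of -0.028, 0.016 and 0.0021 in the 3 comparisons, and 0, 2 and 1 of 6 libraries correlated best with their own number. The replicate block gave 4, 4 and 2 calls among the 10 genes, without Ext2 (limma, adjusted p = 0.0686) in the second and Srgn (adjusted p = 0.0742) in the third comparison. Depth is estimated and not known, and 3 libraries a group bound each test.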
